A study of Mus musculus with 9 samples.

Results

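The circadian clock genes described here are the 10 genes listed as Clock, Arntl, Per1, Per2, Per3, Cry1, Cry2, Nr1d1, Nr1d2 and Dbp, out of 24341 genes in each deposited table. They were chosen by symbol, and Arntl is the gene of the protein BMAL1. RNA-Seq of embryonic mouse fibroblasts (MEFs), connective tissue cells taken from embryos into culture, was made with mRNA from 3 WT, 3 Atm-/- and 3 Sirt6-/- samples. ATM is the kinase that signals DNA double-strand breaks, and SIRT6 is a chromatin-bound deacylase; the study asked how loss of either alters MEFs. Each library held between 32187040 and 33837949 reads assigned to genes. The labels give no time of harvest and no treatment that would synchronise the clocks of the cells, so every library is a single snapshot and says nothing of rhythm, phase or amplitude. They also do not say that samples of a genotype were separate cultures or embryos. The p-values therefore measure the spread between these samples, which may be technical.

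Sirt6 had 402 to 487 reads in the WT libraries and 4 to 7 in the Sirt6-/- libraries. The Atm label could not be checked in the same way, because Atm had 3443 to 3768 reads in the libraries labelled Atm-/- and 1536 to 1627 in WT, and a count per gene does not show which exons remain. Trp53, the gene of the tumour suppressor p53, had 806 to 946 reads in the libraries labelled Atm-/-, 6563 to 7108 in WT and 9081 to 9218 in Sirt6-/-. The labels list P53-/- and Atm-/- P53-/- mice among the source animals, all on the C57BL/6 background. The methods name immortalised MEFs given by different laboratories, namely Atm-/- cells that also lack p53 and Sirt6-/- cells. Primary MEFs are named there as well. Neither the labels nor the methods tie any of these to a library. Loss of Atm and the low Trp53 cannot be told apart in any comparison below, nor can genotype and cell line. Of 12 fibroblast markers, 9 or 10 reached a mean CPM (reads scaled to the library) of 1 in each genotype. Their summed level was 28150 to 31230 CPM in WT, 20220 to 20570 CPM in Sirt6-/- and 9115 to 9361 CPM in the libraries labelled Atm-/-. The members did not move together. Between WT and Sirt6-/- the mean of Col1a1 went from 8667 to 2377 CPM, of Fn1 from 8979 to 3667 and of Thy1 from 24.4 to 0.470, while Col1a2 went from 4730 to 7805, S100a4 from 467 to 1445, Dcn from 604 to 824 and Pdgfrb from 77.8 to 193. In the libraries labelled Atm-/- the mean of Thy1 was higher than in WT, at 87.3 CPM, as was Fap at 0.911, while the other fibroblast markers were lower. Fap had no read in WT and Lum none in the libraries labelled Atm-/-. The summed level of 4 neural markers was 3.93 to 4.54 CPM in WT, 78.2 to 86.2 CPM in Sirt6-/- and 89.1 to 98.6 CPM in the libraries labelled Atm-/-. Tubb3 and Map2 carried that sum, whereas Sox10 had 2 to 17 reads and Gfap 0 to 8 in every library. In the same order of genotypes, 6 epithelial markers summed to 21.5 to 24.6, 17.0 to 21.5 and 43.8 to 49.5 CPM, with most of the difference in Krt18, and 4 adipocyte markers to 4.61 to 6.59, 13.8 to 18.5 and 12.6 to 17.0 CPM, nearly all of it Fabp4, with no read of Plin1 or Cidec. Again in that order, 5 endothelial markers summed to 3.11 to 5.15, 0.649 to 0.990 and 9.81 to 12.5 CPM, mostly Kdr outside Sirt6-/-. The 5 myeloid markers present summed to 20.4 to 22.2, 21.5 to 26.6 and 22.2 to 24.6 CPM. Among them Csf1r fell from a mean of 7.71 to 2.12 and 0.716, and Cd14 rose from 5.97 to 15.9 and 16.0. Skeletal muscle markers summed to at most 1.52 CPM. The part of all these markers in the results below was not tested, and in bulk RNA fewer cells of a type and less RNA per cell cannot be told apart.

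The mammalian clock is a transcriptional feedback loop. CLOCK and BMAL1 bind E-boxes as a dimer and switch on the Per and Cry genes, whose proteins return to the nucleus and inhibit the dimer. A second loop runs through REV-ERBα and REV-ERBβ, the products of Nr1d1 and Nr1d2, which repress Arntl at ROR elements (ROREs) where the ROR receptors activate it. DBP, an output of the loop, activates genes through D-boxes, where NFIL3 represses. Fibroblasts in culture keep such a clock, but cells of one dish drift out of step.

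These elements can be read in the DNA just before the transcript starts. RefSeq promoter windows on GRCm38.p6, the assembly that mm10 denotes, were found for 9 of the 10 genes. The 250 bases before each start were searched on both strands for the E-box CACGTG, the E′-box CACGTT, the D-box TTANGTAA and the RORE TNGGTCA. Of 32851 windows in all, 6.02% held an E-box, 3.85% an E′-box, 2.06% a D-box and 9.19% a RORE. The windows of Arntl, Per3, Cry1 and Cry2 are printed because they hold more than 1 match and because the results on the dimer, the Period genes and the cryptochromes turn on these genes. Capitals mark the matches, which do not overlap, each sequence runs 5′ to 3′ toward the transcript start, and bases inside the annotated gene (GENCODE M21, and for the last 3 genes also RefSeq) were left off. RefSeq also has Arntl transcripts that start further upstream of the printed window.
Arntl (chr7:113207215-113207464, plus strand): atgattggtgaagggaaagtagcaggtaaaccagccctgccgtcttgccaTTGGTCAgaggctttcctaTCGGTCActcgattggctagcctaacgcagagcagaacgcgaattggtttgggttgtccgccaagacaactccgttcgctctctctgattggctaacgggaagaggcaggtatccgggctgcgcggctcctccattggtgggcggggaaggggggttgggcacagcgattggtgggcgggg
Per3 (chr4:151044708-151044915, minus strand): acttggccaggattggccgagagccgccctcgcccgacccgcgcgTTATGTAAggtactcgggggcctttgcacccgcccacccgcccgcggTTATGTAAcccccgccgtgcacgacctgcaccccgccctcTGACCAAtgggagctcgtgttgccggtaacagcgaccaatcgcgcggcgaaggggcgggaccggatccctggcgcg
Cry1 (chr10:85185065-85185304, minus strand): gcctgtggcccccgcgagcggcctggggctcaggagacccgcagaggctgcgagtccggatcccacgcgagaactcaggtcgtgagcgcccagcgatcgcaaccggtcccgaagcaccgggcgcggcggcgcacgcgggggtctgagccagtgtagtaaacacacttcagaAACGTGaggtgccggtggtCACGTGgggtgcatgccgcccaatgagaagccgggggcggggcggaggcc
Cry2 (chr2:92434086-92434319, minus strand): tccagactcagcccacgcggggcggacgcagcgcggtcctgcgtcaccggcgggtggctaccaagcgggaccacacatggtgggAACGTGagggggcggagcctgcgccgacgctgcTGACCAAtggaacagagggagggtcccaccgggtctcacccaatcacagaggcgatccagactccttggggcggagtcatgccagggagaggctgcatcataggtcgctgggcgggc

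Arntl held 2 ROREs, beginning at positions -200 and -181 from its start, as did 0.557% of all windows. Per3 held 2 D-boxes at -205 and -158, as did 0.0731% of all windows, and a RORE at -118. All positions here count from the transcript start used in the search. The printed Per3, Cry1 and Cry2 sequences stop before that start, because bases inside the annotated gene were left off. In these sequences the matches therefore lie nearer to the end of the print than the positions given. Cry1 held an E′-box at -79 and an E-box at -60. Its paralogue Cry2 held no E-box in this window, but an E′-box at -166 and a RORE at -133. Nr1d1 held an E′-box at -28, and an alternative start of Per1 inside the gene had an E-box at -166. None of these letters were found in the windows of Clock, Nr1d2 and Dbp. A match is a description of sequence and does not show that a factor binds. The printed windows were picked for their matches, so the shares over all windows do not test whether clock genes are unusual.

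**Figure D1:**
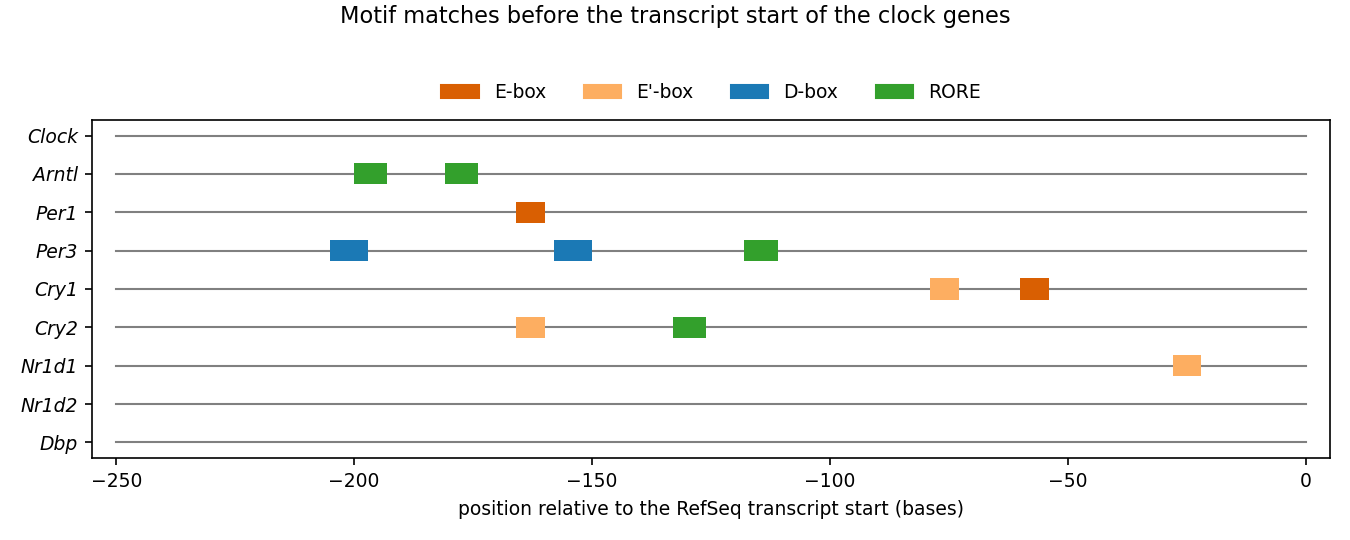
Motif matches (coloured bars) in the 250 bases before the RefSeq transcript start of 9 clock genes, with position relative to the start on the x axis; for genes with several listed starts 1 is drawn, which for Per1 lies inside the gene. Arntl carries a pair of ROREs, Per3 a pair of D-boxes, and Clock, Nr1d2 and Dbp carry no match.

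All 10 genes had reads in every library and passed the filter on low counts in every comparison. In reads per kilobase, scaled to the library's read total (RPKM), which allows levels of different genes to be set side by side, the WT order ran from Nr1d2 at 11.1 and Clock at 9.43 to Per3 at 1.43 and Dbp at 0.684. Cry1 (6.01), Nr1d1 (5.75) and Per1 (4.79) had ranges that overlapped their neighbour in that order, as had Cry2 (3.64) and Arntl (3.52); the other neighbours did not overlap. In Sirt6-/- MEFs Nr1d2 stayed first at 15.2 RPKM, followed by Nr1d1 at 12.0, while Arntl (8.46), Clock (8.32), Per1 (7.94) and Cry2 (6.69) each overlapped the next of these, and Dbp (2.28) overlapped Per2 (1.97) at the bottom. Nr1d2 (12.5) and Clock (12.3) overlapped at the top in the libraries labelled Atm-/-, and Cry2 at 2.27 RPKM overlapped Per2 at 2.43. These orders rest on the gene lengths listed with the counts, such as 2908 bases for Arntl, where GENCODE M21 gives 7523 exonic bases.

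**Figure D2:**
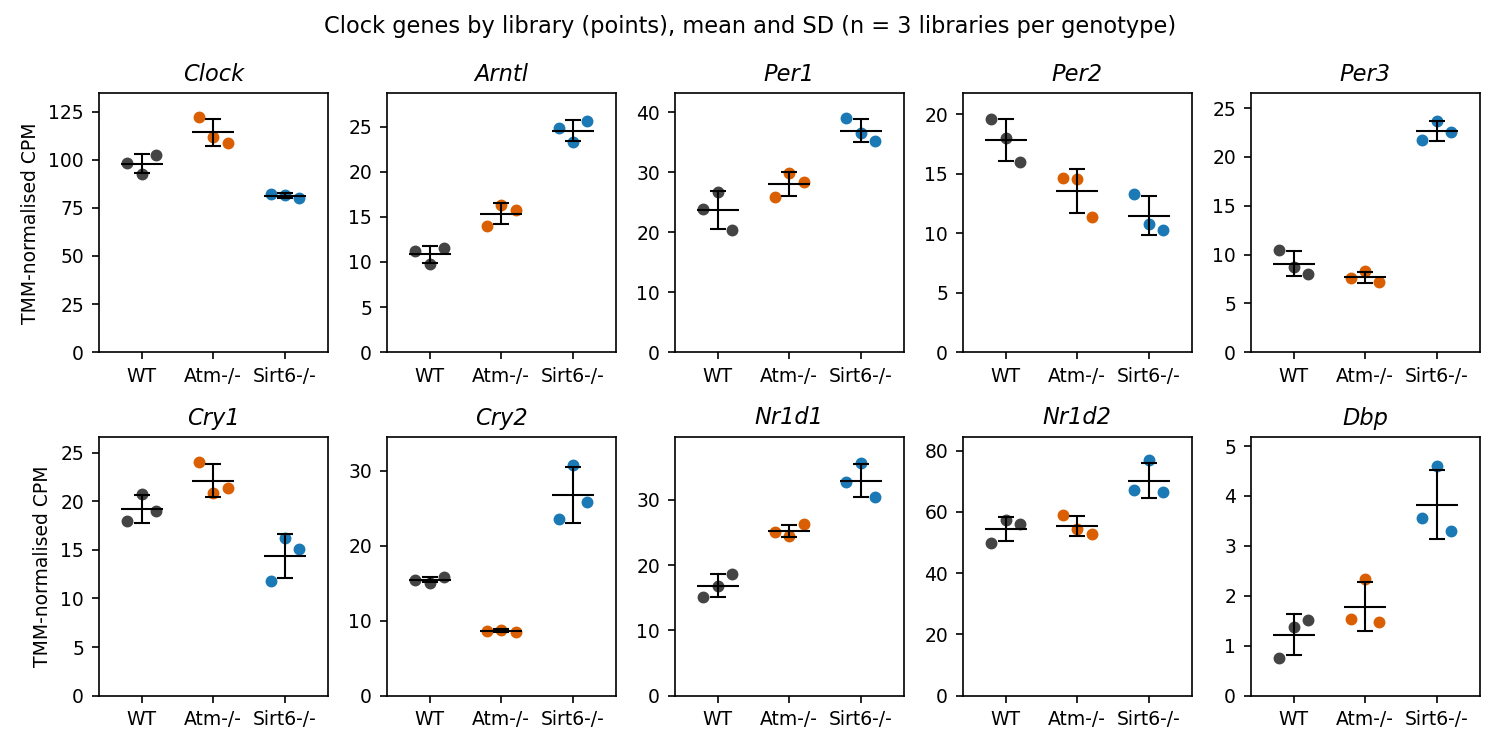
TMM-normalised CPM (y axis, linear from 0) of each clock gene in the 3 libraries of each genotype (points), with the mean and SD as black bars. The Sirt6-/- libraries lie above both other genotypes for Arntl, Per1, Per3, Cry2, Nr1d1, Nr1d2 and Dbp, and below both for Clock and Cry1.

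In Sirt6-/- against WT MEFs, 7 clock genes rose and 3 fell in the quasi-likelihood test of edgeR, with p-values adjusted over all genes by the method of Benjamini and Hochberg. Here 76.6% of the 13206 genes tested were called, 39.2% higher and 37.4% lower, so a call alone says little about a clock gene. The median log2 fold change of the 10 genes was 0.72, against 0.02 over all genes tested. In the libraries labelled Atm-/- against WT, 4 clock genes rose, 2 fell and 4 were not called, where 68.4% of 13283 genes were called, 34.7% higher and 33.6% lower. The median of the 10 genes was 0.20, against 0.01 over all genes. This comparison leans on the scaling of the libraries: with read totals in place of TMM (the trimmed mean of M-values, which sets the bulk of genes to no change), the median of all genes moved up by 0.16 and 64.9% instead of 50.8% of the called genes were higher. Under that scaling 6 clock genes were higher and 1 lower, where 46.3% of all genes tested were higher and 25.0% lower. Both comparisons use the same WT libraries, so the knockouts were also compared directly. Against Sirt6-/-, 2 clock genes were higher and 7 lower in the libraries labelled Atm-/-, where 75.8% of 13460 genes were called, 38.0% higher and 37.8% lower; the median was -0.38, against 0.00 over all genes.

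Few of these changes reached 2-fold. With that further limit, 3 clock genes were higher (Arntl, Per3 and Dbp) and 0 lower in Sirt6-/- against WT, where 17.5% and 11.8% of all genes were. In the libraries labelled Atm-/-, 0 were higher and 0 lower than in WT, against 12.6% and 9.85% of all genes. Between the knockouts 0 were higher and 3 lower (Per3, Cry2 and Dbp), against 11.3% and 14.2% of all genes.

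**Figure D3:**
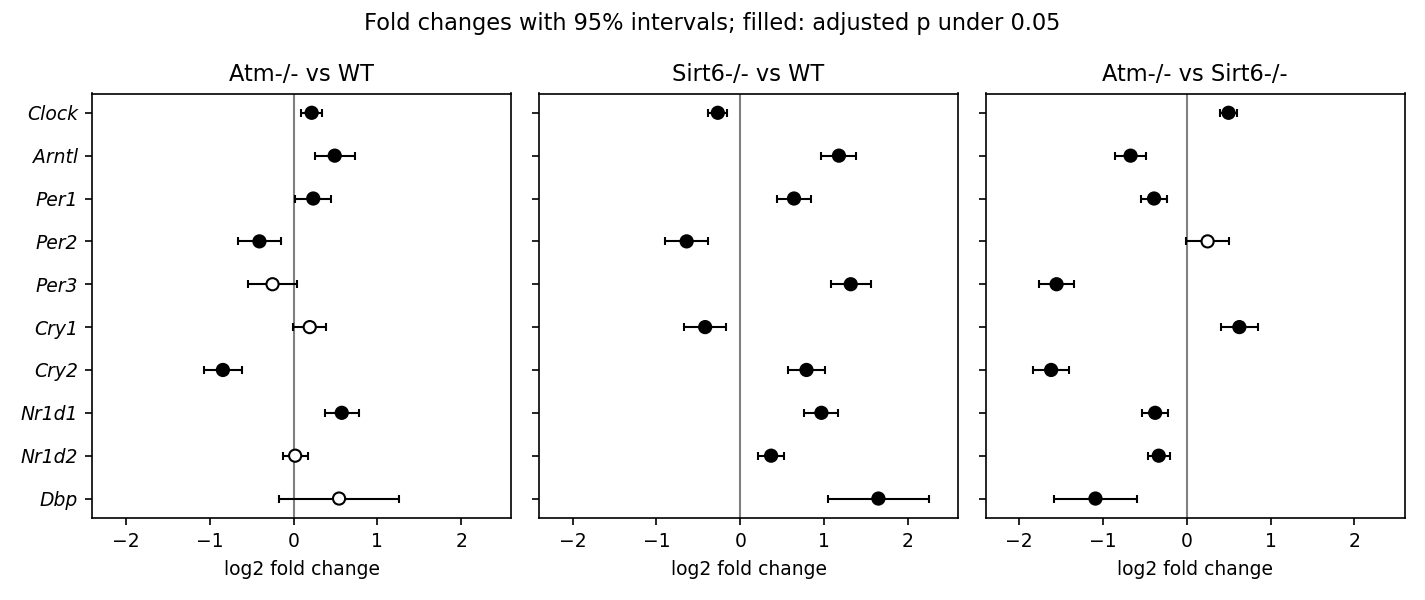
Log2 fold change (x axis) of each clock gene in the 3 comparisons, with 95% intervals from the quasi-likelihood fit; filled points had an adjusted p under 0.05. Cry2 lies at -0.84 in Atm-/- vs WT and at 0.79 in Sirt6-/- vs WT, and Dbp has the widest intervals.

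In the positive limb, Clock and Arntl changed in opposite directions in Sirt6-/- MEFs and both rose in the libraries labelled Atm-/-. Clock, which encodes the bHLH-PAS partner of BMAL1, lies on chromosome 5 (76209868-76304792, minus strand). Its normalised CPM was 98.4, 92.7 and 102.6 in WT, 122.3, 111.7 and 108.8 in the libraries labelled Atm-/-, and 82.1, 81.9 and 79.9 in Sirt6-/-. The 3 genotypes did not overlap, with WT in the middle. Clock rose by 0.22 ± 0.06 on the log2 scale (SE, n = 3 against 3; adjusted p = 0.00437) in the libraries labelled Atm-/- and fell by 0.27 ± 0.05 (adjusted p = 0.000362) in Sirt6-/-. The direct difference was 0.50 ± 0.05 (adjusted p = 1.68e-08).

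Arntl (chromosome 7, 113207465-113314126, plus strand) rose in both. Its normalised CPM was 11.2, 9.78 and 11.6 in WT, 14.0, 16.3 and 15.7 in the libraries labelled Atm-/-, and 24.8, 23.2 and 25.6 in Sirt6-/-, with no overlap between genotypes. The rise was 1.18 ± 0.10 (2.26-fold, adjusted p = 4.11e-08) in Sirt6-/- and 0.49 ± 0.11 (1.41-fold, adjusted p = 0.00124) in the libraries labelled Atm-/-. Arntl was thus lower in the libraries labelled Atm-/- than in Sirt6-/-, with a log2 difference of -0.67 ± 0.09 (adjusted p = 6.61e-07). In Sirt6-/- MEFs both genes of the activating dimer therefore moved in opposite directions. Per kilobase of listed length, Clock stood well above Arntl in WT (9.43 against 3.52 RPKM), whereas their ranges overlapped in Sirt6-/-. That overlap rests on the listed lengths, 9787 bases for Clock and 2908 for Arntl. GENCODE M21 gives 13727 and 7523 exonic bases, and the distance between the genes within a genotype depends on the lengths used.

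The 3 Period genes, whose products carry the inhibitory complex back to the nucleus, differed from each other. Per1 (chromosome 11, 69095217-69109960, plus strand) had a normalised CPM of 23.9, 26.7 and 20.4 in WT, 39.0, 36.5 and 35.2 in Sirt6-/-, and 25.9, 29.9 and 28.3 in the libraries labelled Atm-/-. Sirt6-/- stood above both other genotypes, while the other 2 overlapped. Per1 rose by 0.64 ± 0.09 in Sirt6-/- (adjusted p = 1.79e-05). Its difference of 0.24 ± 0.10 in the libraries labelled Atm-/- (adjusted p = 0.0474) passed the threshold only narrowly. That call was lost with DESeq2 (adjusted p = 0.0502), without replicate 2 or 3 of the libraries labelled Atm-/- (adjusted p = 0.147 and 0.0949), and without WT replicate 1 or 3 (0.0714 and 0.216). Between the knockouts Per1 was lower in the libraries labelled Atm-/-, with a difference of -0.39 ± 0.07 (adjusted p = 6.55e-05).

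Per2 was the Period gene that fell. Located on chromosome 1 (91415982-91459324, minus strand), it had a normalised CPM of 19.6, 18.0 and 16.0 in WT, 14.6, 14.6 and 11.4 in the libraries labelled Atm-/-, and 13.3, 10.8 and 10.3 in Sirt6-/-. WT lay above both knockouts, whose values overlapped. Per2 fell by 0.64 ± 0.12 (adjusted p = 0.000224) in Sirt6-/- and by 0.41 ± 0.12 (adjusted p = 0.0072) in the libraries labelled Atm-/-; the latter was -0.24 (adjusted p = 0.0813) when libraries were scaled by their totals alone. The direct difference between the knockouts was 0.25, with a 95% interval from -0.01 to 0.51 (adjusted p = 0.0771), and it passed the threshold with total scaling (0.0314), without replicate 3 of the libraries labelled Atm-/- (0.0153) or without Sirt6-/- replicate 1 (0.0173).

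Per3, on chromosome 4 (151003652-151044665, minus strand), went the other way in Sirt6-/- MEFs. Its normalised CPM was 10.5, 8.76 and 8.00 in WT and 21.7, 23.7 and 22.5 in Sirt6-/-, a rise of 1.32 ± 0.11 (2.50-fold, adjusted p = 5.11e-08). In the libraries labelled Atm-/- it was 7.59, 8.28 and 7.15, overlapping WT, with a difference of -0.25 ± 0.14 (adjusted p = 0.122; 95% interval -0.55 to 0.04). The direct difference was -1.55 ± 0.10 (adjusted p = 1.05e-11), with no overlap between the knockouts. Sirt6-/- MEFs thus held more Per1 and Per3 and less Per2 than WT. Per3 is also the clock gene whose printed window holds the pair of D-boxes, but whether these bear on its level was not tested.

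The cryptochromes, the stronger repressors of the dimer, moved against each other. Cry1 (chromosome 10, 85131700-85185064, minus strand) had a normalised CPM of 18.0, 20.8 and 18.9 in WT, 11.8, 16.2 and 15.1 in Sirt6-/-, and 24.0, 20.9 and 21.4 in the libraries labelled Atm-/-. It fell by 0.42 ± 0.12 in Sirt6-/- (adjusted p = 0.00474). In the libraries labelled Atm-/- the difference of 0.19 ± 0.09 was not called (adjusted p = 0.0774), although every value lay just above every WT value; it was 0.36 (adjusted p = 0.00318) with total scaling and 0.25 (adjusted p = 0.0304) without WT replicate 2. Cry1 was higher in the libraries labelled Atm-/- than in Sirt6-/- by 0.63 ± 0.11 (adjusted p = 2.03e-05).

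Cry2 (chromosome 2, 92403646-92434043, minus strand) showed the clearest split. Its normalised CPM was 15.5, 15.1 and 15.8 in WT, 8.68, 8.82 and 8.48 in the libraries labelled Atm-/-, and 23.5, 30.8 and 25.8 in Sirt6-/-. No genotype overlapped another, and WT lay between the knockouts. Cry2 fell by 0.84 ± 0.10 (1.79-fold lower, adjusted p = 4.89e-06) in the libraries labelled Atm-/- and rose by 0.79 ± 0.10 (1.73-fold, adjusted p = 5.63e-06) in Sirt6-/-. The direct difference was -1.62 ± 0.10 (adjusted p = 1.17e-11). In GENCODE M21, 295 of its 6320 exonic bases overlap the transcript D930015M05Rik on the opposite strand, and no source used here states that the counting used strand.

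The balance of the 2 cryptochromes was computed within each library from reads per kilobase, where the library's scaling cancels. There were 1.54, 1.82 and 1.59 Cry1 for each Cry2 in WT, 3.67, 3.14 and 3.35 in the libraries labelled Atm-/-, and 0.668, 0.698 and 0.773 in Sirt6-/-. By the lengths listed with the counts, 3016 bases for Cry1 and 4001 for Cry2, Cry1 was the more abundant in the first 2 genotypes and Cry2 in Sirt6-/-. GENCODE M21 gives 3340 and 6320 exonic bases, and the order within a genotype can depend on the lengths used. Differences between genotypes do not, because the lengths cancel in them. The mean log2 ratio was 0.72 ± 0.13 (SD, n = 3) in WT, 1.76 ± 0.11 in the libraries labelled Atm-/- and -0.49 ± 0.11 in Sirt6-/-. Each of the 3 pairs of genotypes gave p = 0.1 in a two-sided exact permutation test, the smallest value that 3 against 3 samples allow, with no overlap between genotypes.

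**Figure D4:**
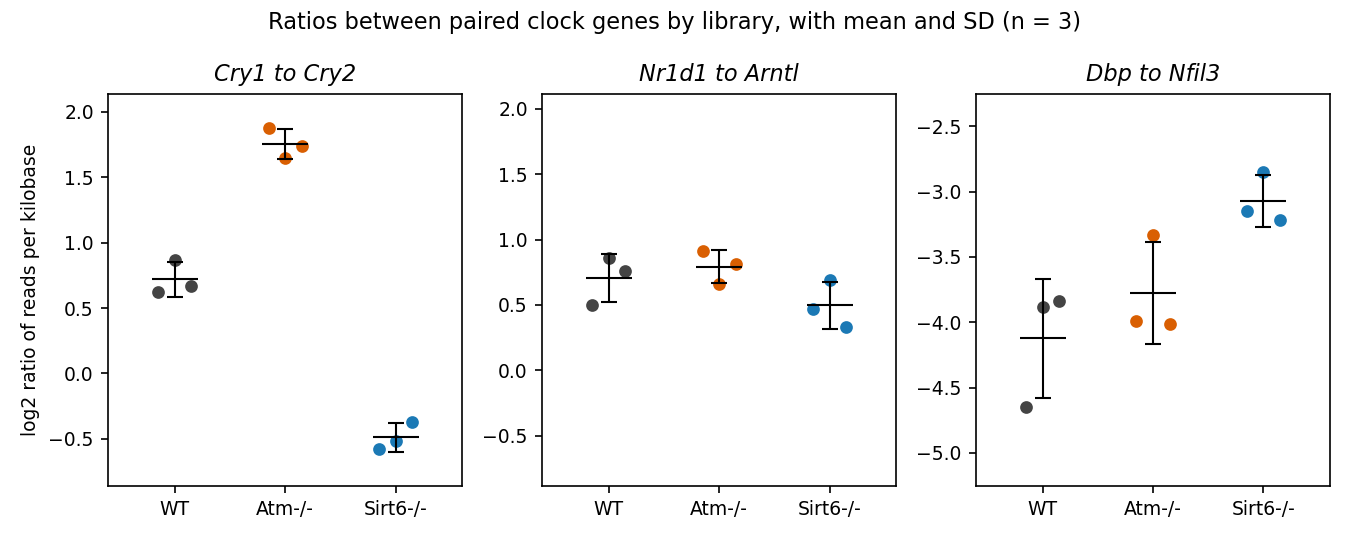
Log2 ratio of reads per kilobase (y axis, each panel spanning 3 log2 units) of 3 gene pairs in each library (points), with mean and SD (n = 3). Cry1 to Cry2 separates all genotypes, from -0.49 in Sirt6-/- to 1.76 in the libraries labelled Atm-/-, whereas Nr1d1 to Arntl overlaps among them.

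In the second loop, Nr1d1 rose in both knockouts. It lies on chromosome 11 (98767932-98775333, minus strand), and its normalised CPM was 15.1, 16.9 and 18.6 in WT, 25.1, 24.4 and 26.3 in the libraries labelled Atm-/-, and 32.8, 35.7 and 30.5 in Sirt6-/-, with no overlap. The rise was 0.97 ± 0.09 (1.96-fold, adjusted p = 2.7e-07) in Sirt6-/- and 0.58 ± 0.09 (1.49-fold, adjusted p = 6.94e-05) in the libraries labelled Atm-/-. Directly compared, the libraries labelled Atm-/- were lower, with a difference of -0.38 ± 0.08 (adjusted p = 0.000131). Exons of Nr1d1 overlap those of Thra, the thyroid hormone receptor alpha gene on the other strand, over 263 of 3077 exonic bases. Thra differed from WT by 0.50 ± 0.09 in the libraries labelled Atm-/- (adjusted p = 0.000167) and by 1.64 ± 0.08 in Sirt6-/- (adjusted p = 1.5e-10); its part in the Nr1d1 counts was not tested.

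Nr1d2 (chromosome 14, 18204054-18239127, minus strand) followed Nr1d1 in Sirt6-/- but by less. Its normalised CPM was 49.7, 57.3 and 56.2 in WT, 67.2, 76.8 and 66.5 in Sirt6-/-, and 59.0, 54.4 and 52.8 in the libraries labelled Atm-/-. The last of these overlapped WT. Nr1d2 rose by 0.37 ± 0.07 in Sirt6-/- (adjusted p = 0.00033). In the libraries labelled Atm-/- the difference was 0.02, with a 95% interval from -0.13 to 0.17 (adjusted p = 0.824); with total scaling it was 0.18 (adjusted p = 0.0311). The libraries labelled Atm-/- were lower than Sirt6-/-, with a difference of -0.34 ± 0.06 (adjusted p = 6.57e-05).

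REV-ERBα is known as a repressor of Arntl, so the ratio of their mRNAs was taken in each library. Per kilobase there were 1.41, 1.81 and 1.70 Nr1d1 for each Arntl in WT, 1.88, 1.58 and 1.76 in the libraries labelled Atm-/-, and 1.39, 1.62 and 1.26 in Sirt6-/-. The genotypes overlapped, although both mRNAs were higher in the knockout libraries than in WT. The difference in the log2 ratio was 0.09 between the libraries labelled Atm-/- and WT (p = 0.6, two-sided exact permutation test), -0.21 between Sirt6-/- and WT (exact p = 0.2) and 0.30 between the knockouts (exact p = 0.2). Over the 9 libraries, which share their genotype groups and scaling, Pearson's r of log2 CPM was 0.93 for Arntl and Nr1d1, and the most negative value among pairs of clock genes was -0.95 for Clock and Cry2. These coefficients mainly describe 3 genotype means.

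Dbp, the PAR bZIP output gene (chromosome 7, 45705088-45710203, plus strand), had the fewest reads. There were 24, 43 and 48 in WT, 53, 82 and 50 in the libraries labelled Atm-/-, and 116, 149 and 110 in Sirt6-/-. In normalised CPM this was 0.753 to 1.52, 1.48 to 2.34 and 3.30 to 4.60; Sirt6-/- stood above the other 2 genotypes, which overlapped. Dbp rose by 1.65 ± 0.28 (3.14-fold, adjusted p = 8.71e-05) in Sirt6-/-, with a 95% interval from 1.05 to 2.25. In the libraries labelled Atm-/- the difference was 0.54, with a 95% interval from -0.17 to 1.26 (adjusted p = 0.165), so that no change and a 2-fold rise both lay inside the interval. The direct difference was -1.09 ± 0.24 (adjusted p = 0.000337).

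Dbp shares 539 of its 2993 exonic bases with Sphk2, a sphingosine kinase gene on the opposite strand. Sphk2 had 526 to 583 reads in WT, 788 to 941 in the libraries labelled Atm-/- and 910 to 1018 in Sirt6-/-, far more than Dbp. It rose by 0.50 ± 0.10 and 0.72 ± 0.08 in the 2 comparisons with WT (adjusted p = 0.000292 and 1.68e-06), and how many Dbp reads came from it was not tested. Nfil3 encodes the repressor that competes with DBP for D-boxes. Per kilobase there were 0.0398, 0.068 and 0.0698 Dbp for each Nfil3 in WT, 0.0627, 0.0997 and 0.062 in the libraries labelled Atm-/-, and 0.113, 0.139 and 0.107 in Sirt6-/-. Sirt6-/- lay above the others by 1.05 (WT) and 0.70 (libraries labelled Atm-/-) on the log2 scale, each with exact permutation p = 0.1, the smallest possible; the libraries labelled Atm-/- and WT overlapped (exact p = 0.6).

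A further 54 genes in 5 lists surround these 10 in the clock, and their calls were counted in the same fits. Of 51 tested in the libraries labelled Atm-/- against WT, 25 rose and 16 fell; of 48 tested in Sirt6-/- against WT, 22 rose and 18 fell. Their median log2 fold change was 0.09 in both. Between the knockouts 25 were higher and 19 lower of 52 tested, with a median of 0.11. The calls were thus 41 of 51, 40 of 48 and 44 of 52, to be read against the 68.4%, 76.6% and 75.8% of all genes called in the same fits; whether the lists differ from other genes was not tested. Changes of at least 2-fold were called in 17, 14 and 12 of them, where 22.5%, 29.3% and 25.5% of all genes were. Rorb, Ppargc1a and Lonrf3 passed the filter on low counts only through the libraries labelled Atm-/-, where they were high. The direction of their difference was thus fixed in advance, and they count among the rises and 2-fold changes given here. Likewise Arntl2 in the libraries labelled Atm-/- and Hlf in Sirt6-/- passed against WT only through the WT libraries, which fixed their falls.

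**Figure D5:**
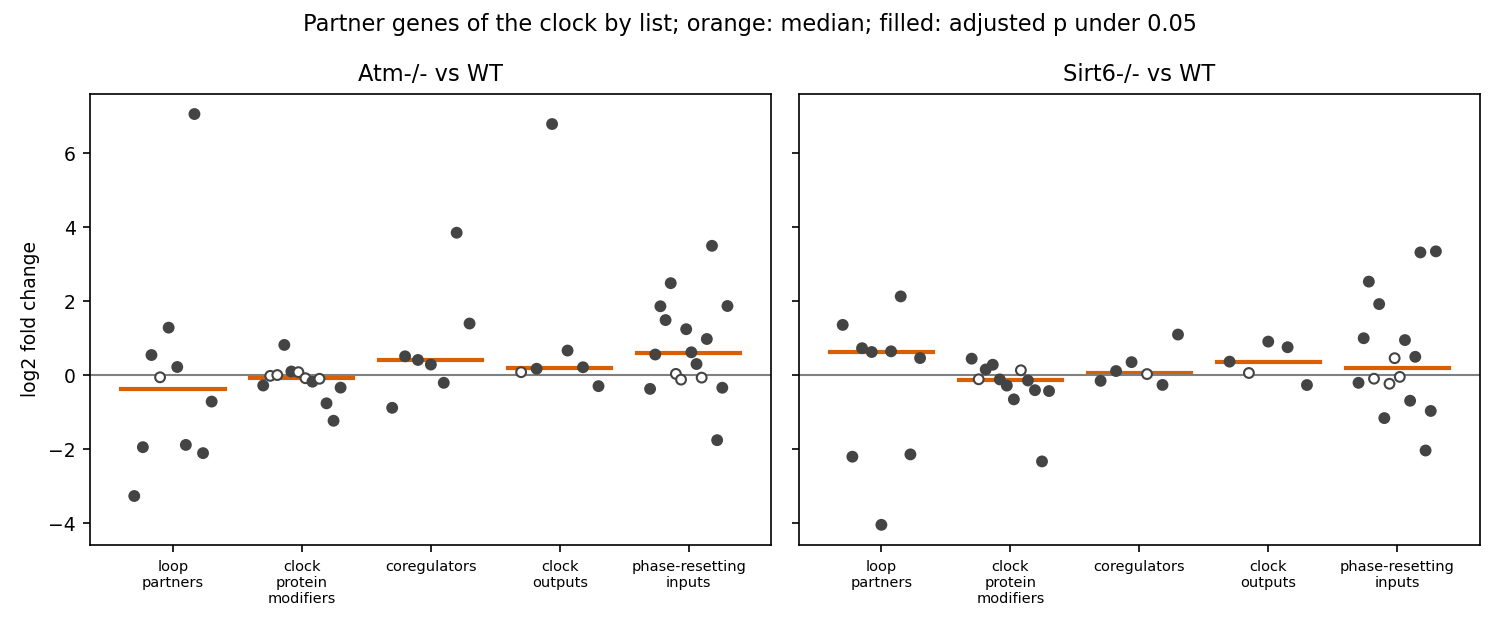
Log2 fold change against WT (y axis) of each partner gene tested, by list, with the list median in orange; filled points had an adjusted p under 0.05. The points near 7 in the left panel are Rorb and Lonrf3, which had 0 to 5 reads in each WT library, so their height depends on the fit's prior count.

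Among loop partners, 4 of 10 tested rose and 5 fell in the libraries labelled Atm-/-, and 6 of 9 rose and 3 fell in Sirt6-/-. Over all genes tested, 34.7% were called higher and 33.6% lower in the former comparison, and 39.2% and 37.4% in the latter. Bhlhe40, whose product DEC1 competes with CLOCK and BMAL1 for E-boxes, fell from 7713, 8018 and 7746 reads in WT to 2337, 2159 and 2234 in the libraries labelled Atm-/- and to 1747, 1847 and 1720 in Sirt6-/-. The changes were -1.94 ± 0.05 (adjusted p = 1.97e-13) and -2.20 ± 0.05 (adjusted p = 3.17e-14). Its paralogue Bhlhe41, with 66 to 84 reads in WT, rose by 0.55 ± 0.22 (adjusted p = 0.036) and 0.73 ± 0.20 (adjusted p = 0.00447). Of the ROR receptors, which activate Arntl at ROREs, Rora and Rorb differed in opposite ways between the knockouts. Rora had 94 to 123 reads in WT, 23 to 46 in the libraries labelled Atm-/- and 433 to 561 in Sirt6-/-, a direct difference of -3.99 ± 0.19 (adjusted p = 7.1e-14). Rorb had 3, 0 and 0 reads in WT, 2 in each Sirt6-/- library, and 157, 201 and 134 in the libraries labelled Atm-/-. It passed the filter only through the last of these.

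Paralogues of the clock genes themselves were also unequal. Arntl2, the gene of BMAL2, had 145, 69 and 94 reads in WT, 24, 4 and 7 in the libraries labelled Atm-/- and 294, 268 and 259 in Sirt6-/-. It fell by 3.26 ± 0.48 (adjusted p = 2.67e-05) in the former and rose by 1.36 ± 0.21 (adjusted p = 4.21e-05) in the latter. Arntl was therefore higher and Arntl2 lower in the libraries labelled Atm-/- than in WT. Npas2, the paralogue of Clock, had 0 to 20 reads and was not tested. The PAR bZIP relatives of Dbp differed too. Tef was lower in the libraries labelled Atm-/- than in Sirt6-/-, with a difference of -1.16 ± 0.06 (adjusted p = 1.07e-13). Hlf had 83 to 144 reads in WT, 264 to 361 in the libraries labelled Atm-/- and 4 to 9 in Sirt6-/-, so that Dbp and Hlf moved in opposite directions in Sirt6-/- (1.65 and -4.04).

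Kinases, ubiquitin ligases and deubiquitinases that modify clock proteins had medians near 0 (-0.08 and -0.12). Of 12 tested in each comparison with WT, 2 rose and 5 fell in the libraries labelled Atm-/-, and 3 rose and 7 fell in Sirt6-/-. In the same fits 68.4% and 76.6% of all genes were called. Usp2, a deubiquitinase of clock proteins, fell most, by 1.23 ± 0.24 and 2.32 ± 0.27 on the log2 scale (adjusted p = 0.00037 and 1.6e-06). Csnk1e, the gene of the kinase CK1ε that phosphorylates PER, rose by 0.82 ± 0.05 (adjusted p = 4.61e-09) and 0.29 ± 0.06 (adjusted p = 0.000239). Gsk3b fell by 0.76 ± 0.05 (adjusted p = 3.82e-09) in the libraries labelled Atm-/- and Csnk2b by 0.65 ± 0.05 (adjusted p = 2.85e-08) in Sirt6-/-.

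Of 7 coregulators tested in the libraries labelled Atm-/-, 5 rose and 2 fell, where 68.4% of all genes were called. Of 6 tested in Sirt6-/-, 3 rose and 2 fell, where 76.6% of all genes were called; the difference between these counts was not tested. Sirt1, the deacetylase that binds CLOCK and BMAL1, had 415 to 502 reads in WT, 1299 to 1399 in the libraries labelled Atm-/- and 1008 to 1063 in Sirt6-/-. It rose by 1.40 ± 0.08 (adjusted p = 2.11e-09) and 1.10 ± 0.09 (adjusted p = 3.24e-08). Ppargc1a, whose product PGC-1α coactivates ROR receptors, had 6 to 22 reads in WT, 5 to 10 in Sirt6-/- and 242 to 263 in the libraries labelled Atm-/-. It was tested only through those libraries, so its place among the rises there was fixed by the filter. Crebbp, an acetyltransferase gene, fell by 0.88 ± 0.07 (adjusted p = 2.24e-08) in the libraries labelled Atm-/- and by 0.15 ± 0.06 (adjusted p = 0.0296) in Sirt6-/-.

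Output genes beyond Dbp included Nampt, the rate-limiting enzyme of NAD+ salvage. It rose by 0.67 ± 0.05 (adjusted p = 5e-08) and 0.91 ± 0.06 (adjusted p = 1.73e-09), and Wee1, the cell cycle kinase gene, fell by 0.29 ± 0.08 (adjusted p = 0.0067) and 0.26 ± 0.09 (adjusted p = 0.0204). In this list 4 of 6 rose and 1 fell in the libraries labelled Atm-/-, and 3 of 5 rose and 1 fell in Sirt6-/-. The shares of all genes called in these fits were 68.4% and 76.6%. Lonrf3 went from 3 to 5 reads in WT to 465 to 533 in the libraries labelled Atm-/-. It too was tested only through those libraries, which fixed its place among the rises.

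The inputs that reset the clock of cultured fibroblasts (serum, glucocorticoid and cAMP responses) had 10 of 16 genes higher and 3 lower in the libraries labelled Atm-/-, and 7 of 16 higher and 5 lower in Sirt6-/-. All genes tested were called higher in 34.7% and lower in 33.6% in the first comparison, and in 39.2% and 37.4% in the second. Sgk1 and Tsc22d3, both glucocorticoid-responsive, were among the largest rises. Sgk1 had 755, 856 and 740 reads in WT, 9082, 10625 and 9551 in the libraries labelled Atm-/-, and 7971, 8282 and 8111 in Sirt6-/-. Tsc22d3 rose by 1.87 ± 0.16 (adjusted p = 1.03e-07) and 3.35 ± 0.12 (adjusted p = 2.83e-12). Another glucocorticoid-responsive gene, Fkbp5, did not follow them: it fell by 1.15 ± 0.07 in Sirt6-/- (adjusted p = 1.49e-09) and was not called in the libraries labelled Atm-/-. Sik1, a kinase gene induced by cAMP, fell by 1.75 ± 0.08 (adjusted p = 4.22e-11) and 2.03 ± 0.08 (adjusted p = 9.46e-12). Fos was called in none of the 3 comparisons, but other genes of the list rose. Egr2 rose by 2.49 ± 0.29 (adjusted p = 2.76e-06) and 1.93 ± 0.31 (adjusted p = 4.67e-05). Dusp1 rose by 1.87 ± 0.09 (adjusted p = 1.63e-10) and 2.53 ± 0.09 (adjusted p = 3.19e-12). Egr1 rose by 1.49 ± 0.09 (adjusted p = 2.2e-09) in the libraries labelled Atm-/- and was not called in Sirt6-/-.

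Genes outside the clock whose log2 CPM followed a clock gene most closely over the 9 libraries were looked up among those whose mean log2 CPM reached 3. For Arntl they were Hdac5 (r = 0.997), Hdac1 (0.995) and Hmgn3 (0.994). Smad1 (0.986), Rap2c (0.984) and Tada2a (0.984) came closest to Nr1d1, and Vipas39 (0.983), Srp54a (0.980) and 8430419L09Rik (0.972) to Dbp. With 3 genotype groups and 9491 or 9492 genes searched, such values describe a shared order of the genotype means.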

How the data were processed

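Poly(A)-selected RNA of 9 MEF samples (3 WT, 3 Atm-/-, 3 Sirt6-/-) had been sequenced on an Illumina HiSeq instrument. For each sample the authors deposited read counts per gene, which are whole numbers without normalization, and RPKM values, which they made from the counts with a listed gene length and 1 read total per sample. The genome build in the submitters' processing notes is mm10; the aligner, counter and annotation are not given in the sources used here, nor is whether counting used strand. Groups came from the sample titles.

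Counts were tested for each pair of genotypes with edgeR 4.0.16 in R 4.3.3 (filterByExpr, TMM, glmQLFit, glmQLFTest), with Benjamini-Hochberg adjustment over all genes that passed the filter and a threshold of 0.05. Errors of fold changes are standard errors from that test, and levels are TMM-normalised CPM or, between genes, RPKM. Ratios within a library were compared by two-sided exact permutation tests. Alternatives were DESeq2 1.42.0, its size factors in edgeR, scaling by library totals, no or a stricter filter (10 reads in every sample), all 9 samples in one fit, a 2-fold limit, a replicate block, and leaving out each library. The fits were also run on simulated counts with known changes. Those changes were few and balanced in direction, so the simulation does not bear on the choice of library scaling.

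The 10 genes, the partner lists and the tests were chosen with earlier results of these data known. Of the partner genes, those named are from the 3 largest rises and 3 largest falls called in a list and comparison, plus the genes of the ratios. Npas2, Fos and the marker genes were named after their values were seen. Thra and Sphk2 were named for their exon overlap. For Arntl, Nr1d1 and Dbp, the 3 genes with the highest Pearson r of log2 CPM were taken. In each library 3 reads correspond to 0.0887 to 0.0932 CPM, and counting limits the precision of Dbp most. Exon positions came from GENCODE M21 and promoter windows from RefSeq, both GRCm38. No 2 samples held identical counts, and all replicate pairs differed by more than sampling noise (chi-square per gene at least 5.11, where 1 is expected).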

Additional observations from a re-analysis of the deposited data

Results flagged for a closer look

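Clock and Cry2 were singled out because they were called in opposite directions in the 2 knockouts against the shared WT libraries and because the direct comparison of the knockouts was called as well. Clock was higher in the libraries labelled Atm-/- than in Sirt6-/- by 0.50 on the log2 scale (adjusted p = 1.68e-08, edgeR's quasi-likelihood test), with every value of the former above every value of the latter. Cry2 differed by -1.62 (adjusted p = 1.17e-11), with 3 of 3 libraries labelled Atm-/- below 3 of 3 Sirt6-/- libraries. Of all genes tested in that comparison, 75.8% were called.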

How the results depend on the processing

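Direction and side of the threshold were kept in all 130 alternative values of the 10 genes in Sirt6-/- vs WT, in 127 of 130 in Atm-/- vs Sirt6-/- and in 119 of 130 in Atm-/- vs WT. Scaling by library totals gave 6 clock genes higher and 1 lower in Atm-/- vs WT, in place of 4 and 2, with 46.3% and 25.0% of all genes called higher and lower. Under an added 2-fold limit, which is stricter by construction, 0 clock genes were higher and 0 lower in Atm-/- vs WT, 3 higher and 0 lower in Sirt6-/- vs WT, and 0 higher and 3 lower in Atm-/- vs Sirt6-/-; 17, 14 and 12 partner genes were left in Atm-/- vs WT, Sirt6-/- vs WT and Atm-/- vs Sirt6-/-, where 22.5%, 29.3% and 25.5% of all genes were called. Leaving out 1 library at a time, the difference in the log2 Nr1d1 to Arntl ratio in Atm-/- vs WT ran from -0.02 (without WT replicate 1) to 0.16, and that of Nr1d2 from -0.04 to 0.06, with -0.02 without Atm-/- replicate 1; the cause was not tested. Deviations from the genotype means correlated at -0.015 to 0.059 between same-numbered libraries and at -0.071 to 0.041 between differently numbered ones. With 3 libraries per genotype, such values cannot settle whether replicate numbers pair samples. With a replicate block, 8833, 10041 and 10157 genes were called in place of 9080, 10114 and 10205, with 4 clock genes higher and 2 lower in Atm-/- vs WT. Depth limits Dbp, with 24 to 149 reads.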
